A study of Mus musculus with 6 samples.

Results

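The 10 genes described here encode the transcription factor NRF2 and 9 antioxidant or detoxifying proteins that NRF2 is known to control. They were taken from a list of symbols (Nfe2l2, Gclc, Gclm, Slc7a11, Txnrd1, Srxn1, Prdx1, Gpx2, Nqo1 and Hmox1). This list was chosen with earlier results of these data known. All 10 were found among the 24736 gene symbols of the table. Their RNA was measured by sequencing of intestinal epithelial crypts from 6 male mice of 12 weeks, 3 WT and 3 Mtg16-/-, with 1 library for each mouse. MTG16, encoded by Cbfa2t3, is a transcriptional co-repressor, and the study asked how its loss alters gene expression in the crypt. The labels call the knockout CRISPR-induced and give the WT mice no treatment, while the study's methods describe Mtg16-/- mice received from another laboratory, and this difference was not resolved. Neither source names a Cre driver or a promoter for the deletion, and no strain was given in the sources used here. Values are TPM (RNA per gene length, with every library scaled to the same total), and since this unit holds no number of reads, the depth of sequencing is unknown.

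NRF2 is held at a low level in unstressed cells by KEAP1, which presents it to the CUL3 ubiquitin ligase. When oxidants or electrophiles modify KEAP1, NRF2 accumulates, pairs with a small MAF protein and binds the antioxidant response element in the promoters of its targets, where BACH1 can compete with it. The targets supply glutathione, recycle thioredoxin and peroxiredoxins, remove quinones and break down heme. In the intestine the epithelium meets oxidants and food-borne electrophiles from the lumen, and GPX2, a glutathione peroxidase, is known for its expression in the crypt.

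The core of the antioxidant response element reads TGACNNNGC. To show where these genes carry it near their start, the core was searched on both strands in the RefSeq promoter windows (GRCm38.p6, 250 bases before to 50 after a transcript start). Windows were at hand for 8 of the 10 genes, not for Gclc and Hmox1, and Txnrd1 had 3 of the 10 windows since its transcripts have several starts. The core was found in 5 of these 10 windows, 1 each for 5 genes, and in 12.4% of 32851 promoter windows of the same length. Counted by gene, that is 5 of 8, beside 14.0% of the 27025 genes with a window. The stricter form TGACTCAGC, which is contained in the first motif, was found in 1 of the 10 windows, that of Prdx1, and in 0.454% of all. The stretches around 4 of the matches follow on the strand of each gene, with the match in capitals. Where the core lies on the opposite strand it reads GCNNNGTCA.
Prdx1, chr4:116685446-116685494, plus strand: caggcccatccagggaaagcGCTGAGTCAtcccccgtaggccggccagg
Txnrd1, chr10:82859094-82859142, plus strand: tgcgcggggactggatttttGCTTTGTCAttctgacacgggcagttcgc
Gclm, chr3:122245403-122245451, plus strand: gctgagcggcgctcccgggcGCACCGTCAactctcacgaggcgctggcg
Nfe2l2, chr2:75704875-75704913, minus strand: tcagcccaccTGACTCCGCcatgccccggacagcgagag
The matches began 133, 92, 134 and 240 bases before the transcript start of their window in this order. For Prdx1 and Nfe2l2 this start is that of the gene as given below, but for Gclm it is base 122245557 and for Txnrd1 base 82859206, both inside the span of the gene. The stretch of Txnrd1 lay inside the annotated span of the gene but in no exon, and that of Nfe2l2 touched an exon of the neighbouring gene E030042O20Rik (GENCODE vM21). The match of Srxn1 lay after the start and is not printed. A match of these letters is no evidence of binding, and their absence from a window says nothing about sites elsewhere.

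Before the genes are compared, some facts concern all 6 libraries. The targeted gene Cbfa2t3 was found at 3.67, 6.69 and 4.52 TPM in WT and at 4.62, 6.43 and 3.23 TPM in the mice labelled Mtg16-/-, and the groups overlapped. A value for a whole gene cannot show a missing exon, so the genotypes rest on the labels. The epithelial markers were present, with a summed TPM of 8 genes between 9223 and 10456, while 5 endothelial markers summed to at most 2.99. WT replicate 1 stood apart by its enterocyte markers. The 15 enterocyte genes summed to 42573 TPM in it, to 14563 and 18022 in the other WT libraries, and to 14306, 7981 and 7216 in the Mtg16-/- libraries. All 15 had a negative log2 fold change between the genotypes, beside 53.6% of all tested genes, and the groups did not overlap in 7 of them, all lower, where that held for 11.1% of all tested genes. The 12 Paneth cell markers summed to between 11110 and 26592 TPM in WT and between 31703 and 41445 in Mtg16-/-, and the 8 stem cell markers to between 874 and 1499.9 and between 1628 and 2156. A list of 12 heat shock and immediate early genes, which respond to stress and handling, summed to between 343 and 486 TPM in WT and between 213 and 283 in Mtg16-/-. The 8 enteroendocrine markers summed to between 242 and 306 TPM in WT and between 407 and 434 in Mtg16-/-. The sums of the goblet, proliferation, immune, stromal and erythroid lists overlapped between the groups. The enterocyte, Paneth, stem, enteroendocrine and stress lists thus stood apart by genotype, and their part in the results below was not tested. In bulk crypts, fewer cells of a type and less RNA per cell cannot be told apart.

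**Figure D1:**
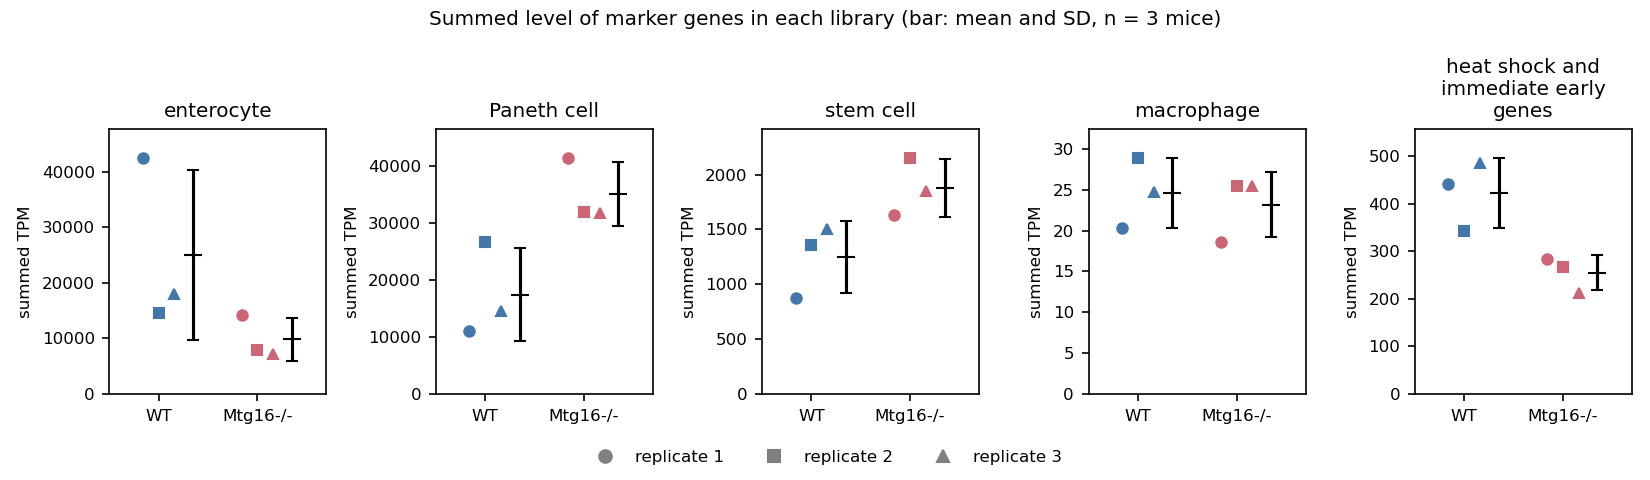
Summed TPM of the enterocyte, Paneth cell, stem cell and macrophage markers and of the heat shock and immediate early genes (vertical axes, linear, from 0) in the 3 WT and 3 Mtg16-/- libraries. Each point is 1 mouse, its shape gives the replicate number, and the bar is the mean with its SD (n = 3). WT replicate 1 holds the highest enterocyte sum, 42573 TPM, and the lowest stem cell sum, 874 TPM.

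The genes differed widely in level. The mean TPM over the 6 libraries was 919 for Gpx2 and 869 for Prdx1, followed by 189.5 for Txnrd1, 189 for Nfe2l2 and 108 for Srxn1. Nqo1, Gclm and Gclc had means of 44.9, 41.2 and 33.9. Hmox1 and Slc7a11 were close to 0, at 1.04 and 0.257. Neighbours in this order whose libraries overlapped were Gpx2 and Prdx1, Txnrd1 and Nfe2l2, Nfe2l2 and Srxn1, Nqo1 and Gclm, and Gclm and Gclc. The summed TPM of the 10 genes was 2626, 2421 and 2557 in WT and 2295, 2115 and 2364 in Mtg16-/-, and the groups did not overlap. Most of this sum came from Gpx2 and Prdx1, and the groups of Prdx1 alone overlapped, so the sum does not describe the 10 genes evenly.

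No gene of the 10 passed the test between the genotypes, which was fitted without the replicate number as a block. With that block Srxn1 and Nqo1 passed, as given below. Nfe2l2, Txnrd1 and Gpx2 had lower levels in every Mtg16-/- library than in any WT library, at 75.7%, 81.4% and 82.2% of the WT mean. Nqo1 had higher levels in every Mtg16-/- library, at 142% of the WT mean. Srxn1 had the lowest ratio of the genes with a TPM above 1, at 61.8% of the WT mean, with groups that overlapped in 1 mouse. The glutathione synthesis genes Gclc and Gclm and the peroxiredoxin gene Prdx1 stood between 92.3% and 106% of the WT mean. The test was limma's moderated test on log2(TPM + 1), fitted to all 12268 genes whose mean reached 1 TPM, and a gene was called at a Benjamini-Hochberg adjusted p under 0.1. The call was made for 0.0326% of them (0.0163% in each direction) and for none of the 9 tested members (lowest adjusted p = 0.266, Nqo1). At an unadjusted p under 0.05 there were 4 of the 9, 3 lower and 1 higher, where 14.6% of all tested genes passed (8.05% lower and 6.53% higher). The groups did not overlap in 4 of the 9, 3 lower and 1 higher, where they did not overlap in 21.0% of all tested genes (11.1% lower and 9.94% higher). Since the members were chosen with earlier results of these data known, these shares are no independent comparison. The median log2 fold change was -0.24 over the 9 and -0.026 over all tested genes. The median of the 9 is the value of Hmox1, a gene close to the minimum for the test. A two-sided exact permutation test of a single gene with 3 mice against 3 cannot give a p below 0.1.

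**Figure D2:**
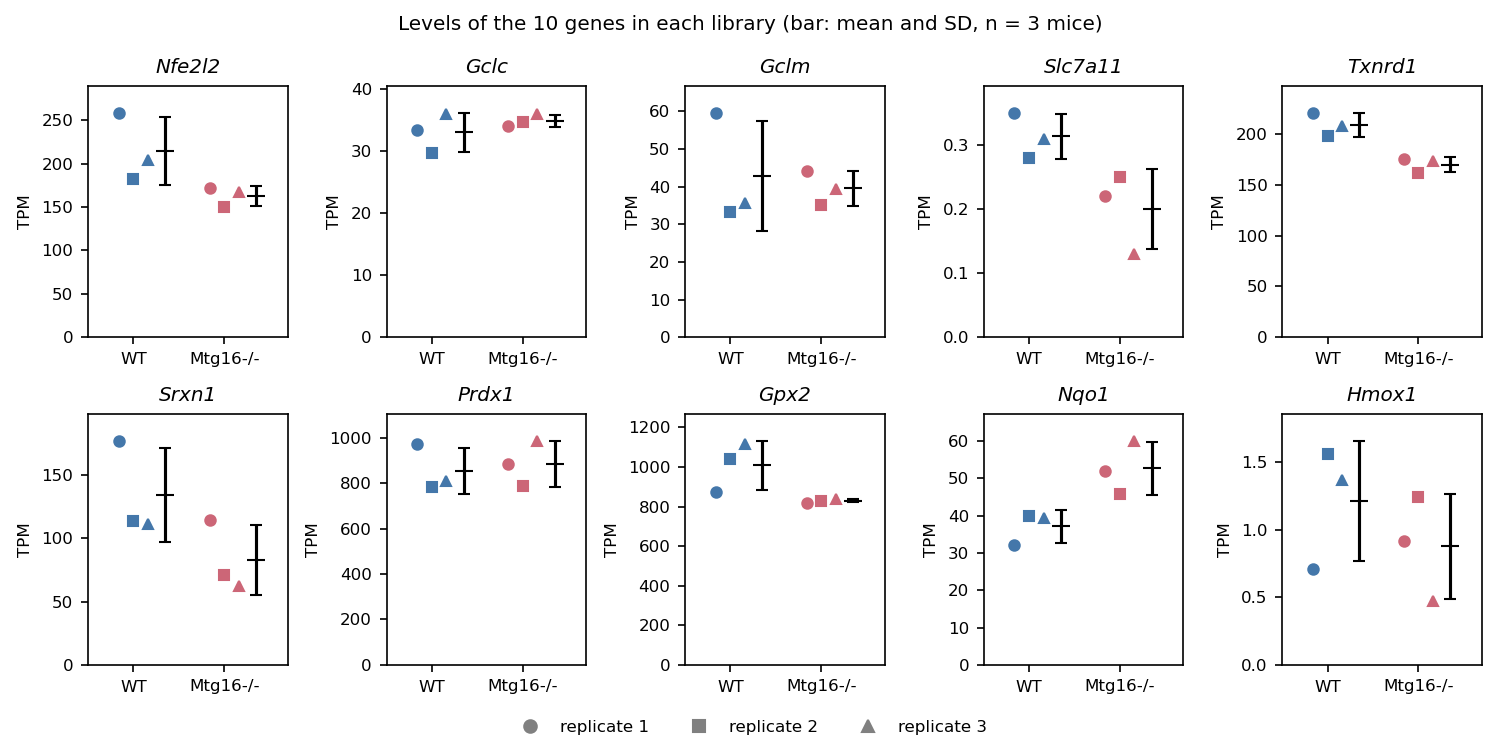
TPM of each of the 10 genes (vertical axes, linear, from 0, with a scale of their own) in the 3 WT and 3 Mtg16-/- libraries. Each point is 1 mouse, its shape gives the replicate number, and the bar is the mean with its SD (n = 3). The Mtg16-/- points of Nfe2l2, Txnrd1, Gpx2 and Slc7a11 lie below all WT points, and those of Nqo1 lie above them.

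Nfe2l2 (chromosome 2, 75675513 to 75704663, minus strand, GRCm38.p6) encodes NRF2 itself. Its TPM was 258, 182 and 204 in WT and 171, 149 and 167 in Mtg16-/-. All 3 Mtg16-/- values lay below the lowest WT value, and WT replicate 1 was the highest. The means were 215 ± 39.4 and 163 ± 11.6 (SD, n = 3 each), a log2 fold change of -0.39 (standard error 0.16, 95% interval -0.75 to -0.028, limma adjusted p = 0.318). The interval is for this gene alone, without adjustment for the number of genes, as are those given below. The exact permutation test gave p = 0.1, the smallest possible. Without WT replicate 1 the log2 fold change was -0.25, after quantile normalization it was -0.26, and with any other library left out it stayed between -0.50 and -0.33.

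The genes of the thioredoxin and peroxiredoxin cycle did not share a pattern. Txnrd1 (chromosome 10, 82833951 to 82897724, plus strand) encodes the cytosolic thioredoxin reductase, a selenoenzyme that passes electrons from NADPH to thioredoxin. Its TPM was 221, 198 and 208 in WT and 175, 161 and 174 in Mtg16-/-. The libraries of each group lay close together, and the groups did not overlap. The log2 fold change was -0.30 (standard error 0.11, 95% interval -0.56 to -0.032, limma adjusted p = 0.312), with an exact permutation p = 0.1, and it lay between -0.33 and -0.25 with each library left out, but was -0.18 after quantile normalization. Eid3, which lies within the span of Txnrd1, had a TPM between 8.72 and 22.6, well below that of Txnrd1, and the sources used here do not state whether reads were counted by strand.

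Srxn1 (chromosome 2, 152105524 to 152111376, plus strand) encodes sulfiredoxin, which restores peroxiredoxins that were inactivated by over-oxidation. The TPM was 177, 114 and 111 in WT and 114, 71.2 and 62.7 in Mtg16-/-. Mtg16-/- replicate 1 lay just above the 2 lower WT libraries, while the other 2 Mtg16-/- libraries lay below all WT libraries. With means of 134 ± 37.3 and 82.8 ± 27.8 (SD, n = 3 each), the log2 fold change was -0.70 (standard error 0.26, 95% interval -1.31 to -0.098, limma adjusted p = 0.306, exact permutation p = 0.3). It was -0.49 without WT replicate 1 and -0.96 without Mtg16-/- replicate 1.

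Prdx1 (chromosome 4, 116685599 to 116700000, plus strand) encodes an abundant peroxiredoxin, which removes hydrogen peroxide and is a substrate of sulfiredoxin. Its TPM was 971, 782 and 807 in WT and 882, 785 and 986 in Mtg16-/-, and the groups overlapped over most of their range. The log2 fold change was 0.052 (standard error 0.16, 95% interval -0.32 to 0.43, limma adjusted p = 0.9001, exact permutation p = 0.7), and its sign turned without WT replicate 2 and without Mtg16-/- replicate 3. The ratio of Srxn1 to Prdx1 TPM, chosen after the values were seen, was 0.182, 0.146 and 0.138 in WT and 0.130, 0.0906 and 0.0636 in Mtg16-/-. The ratio of Txnrd1 to Prdx1, chosen in the same way, was 0.227, 0.253 and 0.257 in WT and 0.199, 0.205 and 0.176 in Mtg16-/-. Neither ratio overlapped between the groups, and both are given without a test. The groups of Txnrd1 alone did not overlap either, so its ratio adds little to that. An annotated pseudogene copy, Prdx1-ps, could share reads with Prdx1, and the overlapping gene AV051173 had a TPM of at most 1.41.

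Gpx2 (chromosome 12, 76792335 to 76795554, minus strand), a selenoprotein of the gut epithelium that reduces hydroperoxides with glutathione, was the most abundant of the 10 genes. Its TPM was 872, 1039.5 and 1115 in WT and 820.5, 831 and 838 in Mtg16-/-. The Mtg16-/- libraries differed little among themselves, with a SD of 8.89 around 829.8, while the WT libraries had a SD of 124 around 1008.9. The groups did not overlap, but WT replicate 1 lay closer to the Mtg16-/- libraries than to the other WT libraries. The log2 fold change was -0.27 (standard error 0.15, 95% interval -0.62 to 0.08, limma adjusted p = 0.426, exact permutation p = 0.1), and it was -0.38 without WT replicate 1 and -0.20 without WT replicate 3. Gpx2-ps1, an annotated copy of the gene that could share reads with it, had a TPM of at most 2.56.

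The groups overlapped for Gclc and Gclm, which encode the subunits of 1 enzyme of glutathione synthesis. Gclc (chromosome 9, 77754535 to 77794489, plus strand) encodes the catalytic subunit of glutamate-cysteine ligase, the rate-limiting enzyme of the pathway. Its TPM was 33.3, 29.7 and 35.9 in WT and 34.0, 34.6 and 35.9 in Mtg16-/-. The Mtg16-/- values lay within the upper part of the WT range, and the log2 fold change of 0.081 had a 95% interval of -0.20 to 0.36 (limma adjusted p = 0.769, exact permutation p = 0.5). It was 0.0096 without WT replicate 2 and 0.14 without WT replicate 3.

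Gclm (chromosome 3, 122245487 to 122267215, plus strand) encodes the modifier subunit of the same enzyme. Its TPM was 59.6, 33.3 and 35.6 in WT and 44.2, 35.0 and 39.4 in Mtg16-/-. WT replicate 1 was far above the other libraries, and the Mtg16-/- libraries lay between it and the other WT libraries or among them. The log2 fold change was -0.071 (95% interval -0.58 to 0.44, limma adjusted p = 0.9003, exact permutation p = 0.9), but 0.19 without WT replicate 1, 0.011 without Mtg16-/- replicate 2 and 0.0033 after quantile normalization, so it had no stable sign. The ratio of Gclm to Gclc TPM, chosen after the values were seen, was 1.79 in WT replicate 1 and lower in each of the other 5 libraries, down to 0.991.

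Slc7a11 (chromosome 3, 50364936 to 50499087, minus strand) encodes the light chain of the cystine and glutamate exchanger, which brings in cystine for glutathione. It had a TPM of 0.35, 0.28 and 0.31 in WT and 0.22, 0.25 and 0.13 in Mtg16-/-. All 3 Mtg16-/- values were below all WT values, but the gene was under the minimum of 1 TPM and was not tested, and at such levels the unknown read number limits any comparison. Its heavy chain partner Slc3a2, which also serves other amino acid transporters, was far more abundant, with a TPM of 209, 124 and 147 in WT and 112, 84.6 and 75.2 in Mtg16-/-. These groups did not overlap either (log2 fold change -0.80, standard error 0.22, limma adjusted p = 0.263).

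Nqo1 (chromosome 8, 107388225 to 107403205, minus strand) encodes a quinone reductase and is a widely used readout of NRF2 activity. Its TPM was 32.1, 40.0 and 39.4 in WT and 52.1, 45.9 and 60.1 in Mtg16-/-. Every Mtg16-/- library lay above every WT library, opposite to Nfe2l2, Txnrd1 and Gpx2. The means were 37.2 ± 4.37 and 52.7 ± 7.12 (SD, n = 3 each), a log2 fold change of 0.49 (standard error 0.15, 95% interval 0.15 to 0.83, limma adjusted p = 0.266, exact permutation p = 0.1). With each library left out the value lay between 0.39 and 0.58. WT replicate 1, which had the highest TPM of Nfe2l2, Txnrd1, Srxn1, Gclm and Slc7a11, had the lowest TPM of Nqo1.

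The ratio of Nqo1 to Nfe2l2 TPM was 0.124, 0.220 and 0.193 in WT and 0.304, 0.307 and 0.360 in Mtg16-/-. Against Txnrd1 the same ratio was 0.146, 0.202 and 0.189 in WT and 0.297, 0.284 and 0.346 in Mtg16-/-. Both ratios were chosen after the values were seen and are given without a test, and neither overlapped between the groups. That was fixed beforehand, since Nqo1 was higher and Nfe2l2 and Txnrd1 were lower in each Mtg16-/- library than in any WT library. The lack of overlap of these ratios therefore adds nothing to that of the single genes. The ratio of 2 genes within a library does not depend on the scaling of that library.

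Hmox1 (chromosome 8, 75093618 to 75100593, plus strand) encodes heme oxygenase, the inducible enzyme of heme breakdown, which BACH1 represses and which macrophages are known to express. With a TPM of 0.71, 1.56 and 1.37 in WT and 0.92, 1.24 and 0.47 in Mtg16-/-, it was just above the minimum for the test. The groups overlapped, and the log2 fold change of -0.24 had a 95% interval of -0.87 to 0.39 (limma adjusted p = 0.696, exact permutation p = 0.4). It was -0.073 without Mtg16-/- replicate 3 and -0.41 without WT replicate 1, and without WT replicate 2 or 3 the gene was under the minimum. The 10 macrophage markers summed to 20.3, 28.9 and 24.7 TPM in WT and 18.6, 25.5 and 25.4 in Mtg16-/-. The largest share of this sum came from Cd14, between 6.58 and 11.1 TPM. Cd68 reached at most 5.18 TPM, C1qa 5.80, C1qb 3.74, Csf1r 2.59 and Mrc1 0.93. Adgre1 reached 0.34 and Cd163 0.05, and Marco was listed at 0 in all libraries. Of the 6 markers of the list that were tested, only C1qc had groups that did not overlap (16.7%, beside 21.0% of all tested genes). Its level was 2.83 to 4.77 TPM in WT and 0.78 to 2.51 in Mtg16-/-. WT replicate 2 held the highest Hmox1 and the highest macrophage sum, while Mtg16-/- replicates 2 and 3 had nearly equal macrophage sums and a Hmox1 TPM of 1.24 and 0.47. The part of these markers in the level of Hmox1 was not tested.

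**Figure D3:**
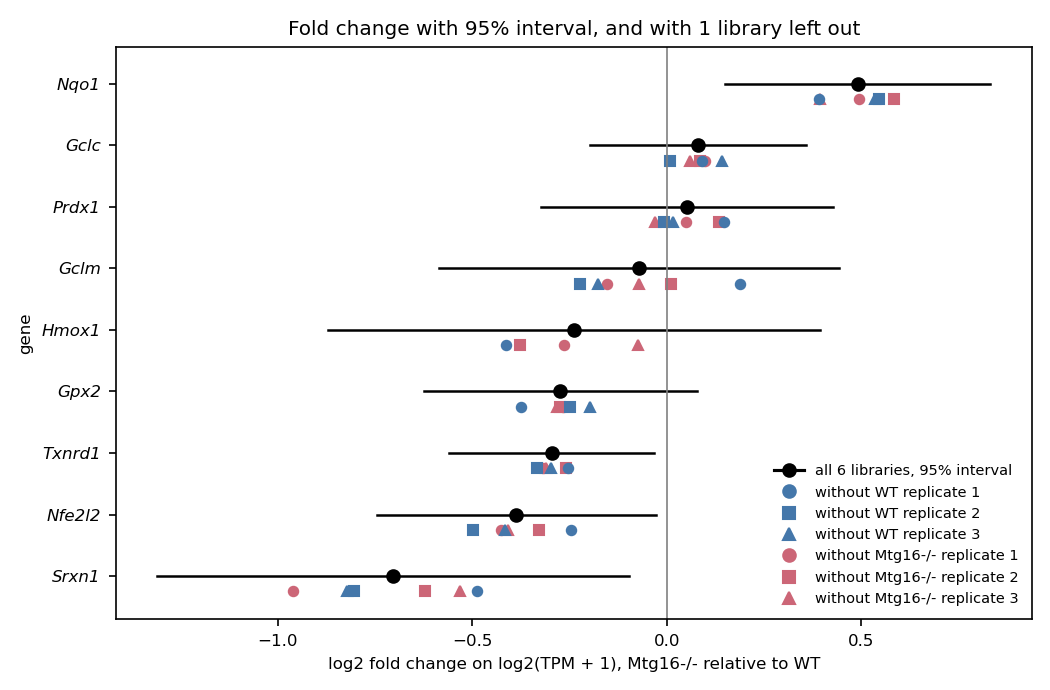
Log2 fold change on log2(TPM + 1) of the 9 tested genes, Mtg16-/- relative to WT (horizontal axis). Black points and lines are the estimate and its 95% interval from all 6 libraries, and the coloured points below them are the estimates with 1 library left out, coloured by its genotype and shaped by its replicate number. Nqo1 stays above 0 between 0.39 and 0.58, Srxn1, Nfe2l2, Txnrd1, Gpx2 and Hmox1 stay below 0, and the points of Gclm and Prdx1 fall on both sides. Hmox1 has 4 such points, since it was under the minimum without WT replicate 2 or 3.

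The rest of the pathway was described from 7 lists of 106 other genes, of which 98 were tested. None was called (limma, lowest adjusted p = 0.141), 22 had an unadjusted p under 0.05, and the groups did not overlap in 22, 12 higher and 10 lower. That is 22.4% in both counts, beside 14.6% and 21.0% of all tested genes. The median log2 fold change of the 98 genes was -0.021, against -0.026 for all tested genes, with 48 positive and 50 negative. The genes named below are, for each list, the 3 of largest fold change whose groups did not overlap.

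Of 14 tested regulators and partners of NRF2, 7 had a positive and 7 a negative fold change, with a median of -0.046. The groups did not overlap in 1 of them (7.14%, beside 21.0% of all tested genes). This was Dpp9, a dipeptidyl peptidase, with a TPM of 40.0, 42.5 and 43.9 in WT and 34.3, 34.1 and 29.2 in Mtg16-/- (log2 fold change -0.37, standard error 0.12, limma adjusted p = 0.281). Keap1, chosen for its role after its values were seen, had a TPM of 35.5, 38.2 and 42.7 in WT and 39.5, 39.7 and 37.8 in Mtg16-/-, with overlapping groups.

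Among 14 genes of glutathione recycling and cysteine supply the median was -0.045. The groups did not overlap in 5 (35.7%, beside 21.0% of all tested genes), 3 higher and 2 lower. Besides Slc3a2, described above, these included Cth, which makes cysteine from cystathionine, at 57.5, 52.8 and 71.1 TPM in WT and 71.2, 80.4 and 93.8 in Mtg16-/- (log2 fold change 0.43, limma adjusted p = 0.302). The enzyme that makes cystathionine, Cbs, was low, between 0.98 and 2.16 TPM in WT and between 2.22 and 2.87 in Mtg16-/-, with a log2 fold change of 0.42 that was 0.23 without WT replicate 1. The other 2, named here after their values were seen to complete the count, were Glrx2 at a log2 fold change of 0.26 and Gss at -0.049.

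The 15 other thioredoxin, peroxiredoxin and sestrin genes had a median of 0.041. The groups did not overlap in 3 (20%, beside 21.0% of all tested genes), 2 higher and 1 lower. Txnrd3, a paralog of Txnrd1, had groups that did not overlap in the opposite direction, with a TPM of 5.78, 7.53 and 7.64 in WT and 9.86, 10.9 and 11.2 in Mtg16-/- (log2 fold change 0.55, standard error 0.16, limma adjusted p = 0.263). The mitochondrial peroxiredoxin gene Prdx3 had a log2 fold change of 0.27 and the cytosolic Prdx6 one of -0.20, and neither overlapped between the groups. Prdx3 stood at 0.13 without Mtg16-/- replicate 3. Of 7 other glutathione peroxidase, superoxide dismutase and catalase genes, Gpx4 and Ccs had groups apart (28.6%, beside 21.0% of all tested genes). Gpx4, which reduces lipid hydroperoxides, had a TPM of 377, 253 and 278 in WT and 233, 196 and 235 in Mtg16-/- (log2 fold change -0.43, limma adjusted p = 0.318). Its value was -0.27 without WT replicate 1. Ccs, the copper chaperone of superoxide dismutase, had a log2 fold change of 0.30.

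In the 11 genes that supply NADPH, 5 had a positive and 6 a negative log2 fold change. The groups did not overlap in 3 (27.3%, beside 21.0% of all tested genes), Me1, Nadk and Pgd. All were lower in the Mtg16-/- libraries, where that held for 11.1% of all tested genes. The largest fold change of the list, named after its values were seen, was that of Tkt, at 0.66. Its TPM was 325, 337 and 354 in WT and 692, 656 and 336 in Mtg16-/-, with overlapping groups. Malic enzyme Me1 had a TPM of 10.5, 7.61 and 13.7 in WT and 7.26, 5.98 and 7.02 in Mtg16-/- (log2 fold change -0.55, or -0.37 without WT replicate 3, limma adjusted p = 0.311). The kinase Nadk, which makes NADP, and Pgd of the pentose phosphate pathway each had a log2 fold change of -0.26. The median of this list was -0.028. The 8 iron and heme genes had 4 positive and 4 negative log2 fold changes, with a median of 0.026. The groups did not overlap in 4 (50%, beside 21.0% of all tested genes), 3 higher and 1 lower. The higher ones, beside 9.94% of all tested genes, were Slc48a1, Fech and Blvra. Slc48a1, a heme transporter, had a TPM of 6.95, 9.43 and 8.61 in WT and 13.1, 11.8 and 14.8 in Mtg16-/- (log2 fold change 0.61, standard error 0.16, limma adjusted p = 0.254). Fech inserts iron into heme and Blvra reduces the biliverdin that heme oxygenase makes, and their log2 fold changes were 0.36 and 0.22. The only other gene of this list whose groups did not overlap was Ftl1, the ferritin light chain, at a log2 fold change of -0.22, named here after its values were seen.

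The detoxification genes that respond to NRF2 were spread most widely, from -1.15 to 1.18 over 29 tested genes, with a median of -0.049. Glutathione transferases of the alpha class lay at both ends. Gsta1 had a TPM of 557, 226 and 281 in WT and 187, 102 and 169 in Mtg16-/- (log2 fold change -1.15, standard error 0.35, limma adjusted p = 0.272), and was -0.76 without WT replicate 1, the library with the highest enterocyte markers. Gsta3 had a TPM of 4.42, 3.29 and 2.68 in WT and 10.1, 7.57 and 9.49 in Mtg16-/- (log2 fold change 1.18, standard error 0.20, limma adjusted p = 0.141). It was called without WT replicate 1 (limma adjusted p = 0.0998) and with the replicate number as a block (limma adjusted p = 0.0181). Under the other alternatives it was not called, with a limma adjusted p of up to 0.509. Mgst1, a glutathione transferase of membranes, had 234, 192 and 263 TPM in WT and 291, 325 and 368 in Mtg16-/- (log2 fold change 0.52, limma adjusted p = 0.272). Ephx1, an epoxide hydrolase named after its values were seen, was the only other gene of the list with groups apart, at a log2 fold change of 0.45. The groups thus did not overlap in 4 of the 29 (13.8%, beside 21.0% of all tested genes), 3 higher and 1 lower. Members of the alpha class are similar in sequence and could share reads.

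Slc7a11 and Slc3a2 are also known targets of ATF4, the transcription factor of the amino acid response. A list of 18 ATF4 target genes also holds Atf4 itself, and each gene was tested. Slc3a2, Chac1, Sesn2 and Mthfd2 are in the pathway lists above as well, so the counts are not independent of those. A negative log2 fold change was found in 15, beside 53.6% of all tested genes, and the median was -0.35. The groups did not overlap in 7 (38.9%, beside 21.0% of all tested genes), 6 lower with Atf4 among them and 1 higher. None was called, and 7 had an unadjusted p under 0.05 (38.9%, beside 14.6%). Apart from Slc3a2, the largest were Phgdh, the first enzyme of serine synthesis, at 22.8, 43.3 and 25.5 TPM in WT and 15.3, 16.5 and 17.1 in Mtg16-/- (log2 fold change -0.81, limma adjusted p = 0.263), and the stress factor Ddit3, at 29.2, 14.7 and 18.0 TPM in WT and 14.6, 12.3 and 7.99 in Mtg16-/- (log2 fold change -0.76, limma adjusted p = 0.309). Without WT replicate 2 the value of Phgdh was -0.54, and without WT replicate 1 that of Ddit3 was -0.49.

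**Figure D4:**
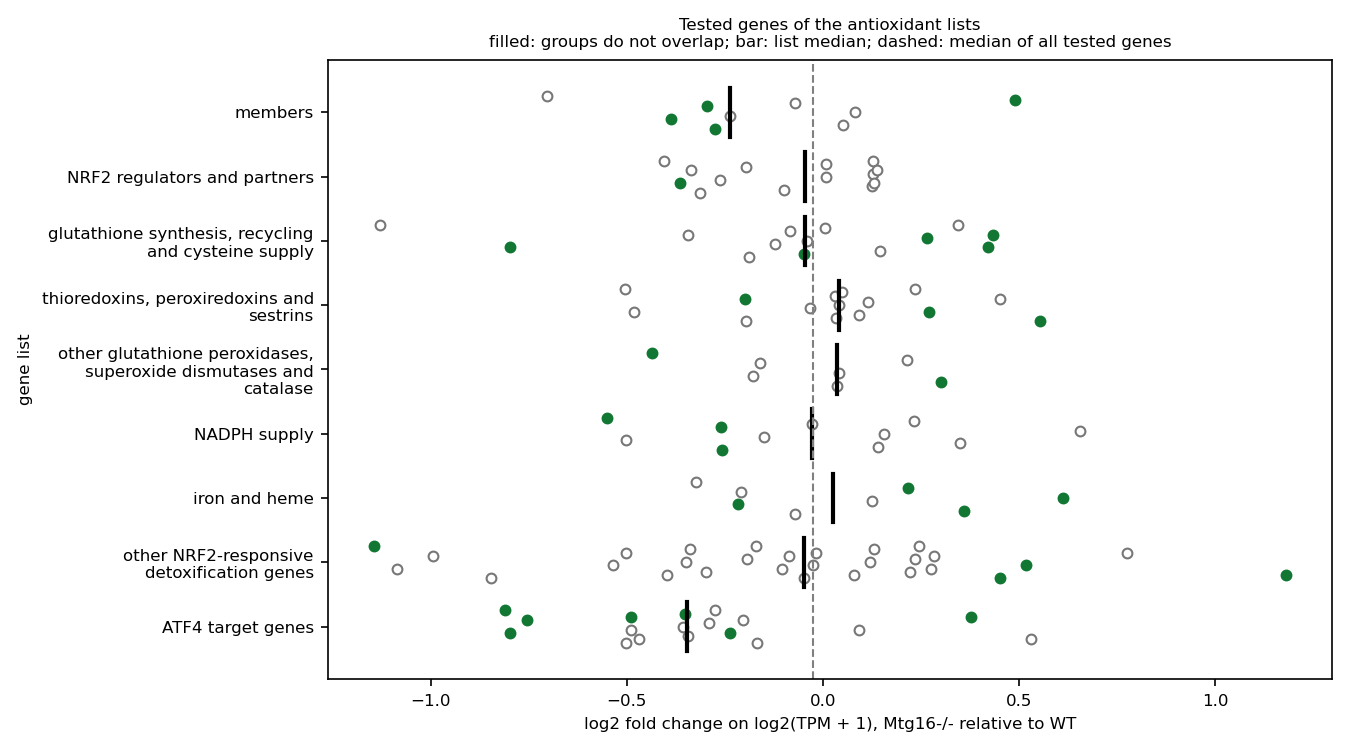
Log2 fold change on log2(TPM + 1), Mtg16-/- relative to WT (horizontal axis), of the tested genes in each list (vertical axis, with small vertical offsets so that points do not hide each other). Filled points are genes whose groups do not overlap, open points are genes whose groups overlap, black bars are list medians and the dashed line is the median of all tested genes. The medians of the 7 pathway lists lie between -0.049 and 0.041, that of the 10 genes described here at -0.24 over the 9 tested, and that of the ATF4 targets at -0.35. The value of -0.24 is that of Hmox1.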

How the data were processed

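The authors quantified genes with RSEM and deposited 1 table of TPM values by gene symbol, with 2 decimals and 1 column for each library. The submitters' processing notes name cutadapt 1.9.1, STAR 2.5.2a, RSEM 1.3.0, DESeq2 1.12.3 and mm10, without roles or order. The libraries were made from total RNA depleted of ribosomal RNA. DESeq2 needs counts and was not run here. All 6 columns matched a sample title. Values were transformed as log2(TPM + 1), a pseudocount of 1, and genes whose mean reached 1 TPM were fitted with limma 3.58.1 (lmFit and eBayes with an intensity trend, R 4.3.3) without covariates. A fold change on this scale understates that of genes with low TPM. Calls used an adjusted p under 0.1. The calculation was also run on simulated data with 200 changed genes, and no outcome of that run is used here. Positions and promoter windows came from RefSeq GRCm38.p6, the assembly of mm10, and strands and exons from GENCODE vM21. Named are all 10 members and, of each pathway list, the called genes or else up to 3 genes of largest fold change whose groups do not overlap. The members, the lists and the threshold were chosen with earlier results of these data known, and further genes named in the text are said to be chosen after their values were seen. Each mouse is a separate animal. Alternatives were quantile normalization, median-ratio rescaling, a pseudocount of 0.1, a minimum of 5 TPM or none, moderation without the trend, the replicate block, each library left out and an adjusted p under 0.05.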

Additional observations from a re-analysis of the deposited data

How the results depend on the processing

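No member was called (limma, adjusted p under 0.1) under any alternative but the replicate block, which called 2, Srxn1 (adjusted p = 0.0158, with a range of 0.0158 to 0.608 over the alternatives) and Nqo1 (0.0825, range 0.0825 to 0.590). With the block, 15 genes of the pathway and ATF4 lists and 1201 of all genes were called, against 0 and 4 without it. Across genes, libraries with a shared number deviated from the means of their groups with correlations of 0.429, 0.0753 and 0.237. WT and Mtg16-/- libraries with different numbers had correlations between -0.331 and 0.198, and 5 of 6 libraries correlated best with their own number. The fit without the block was kept as the main one because 0.0753 was under the limit of 0.1 used for pairing. The correlations of libraries with a shared number were all positive. Beyond these correlations, whether the replicate numbers mark paired mice was not tested. The calls of Srxn1 and Nqo1 depended on the choice of fit. The count over all genes was 15 with a mean TPM of at least 5, 1 after quantile normalization, and 0 with no filter, with no intensity trend or at an adjusted p under 0.05. It lay between 0 and 40 with 1 library left out: 40 without WT replicate 1, 9 without WT replicate 3, and 1, 2 and 0 without Mtg16-/- replicates 1, 2 and 3. The count in the pathway and ATF4 lists lay between 0 and 1. The log2 fold change of Gclm, -0.071, was 0.0033 after quantile normalization and 0.011 without Mtg16-/- replicate 2, and with 1 library left out it lay between -0.22 (without WT replicate 2) and 0.19 (without WT replicate 1). That of Prdx1, 0.052, was -0.0076 without WT replicate 2 and lay between -0.030 (without Mtg16-/- replicate 3) and 0.15 (without WT replicate 1). After quantile normalization Prdx6 was -0.11, Nadk -0.15 and Pgd -0.16, and with a pseudocount of 0.1 Hmox1 was -0.45. No other gene named by rule changed sign, and the cause of these differences was not tested. The depth behind TPM is unknown, which limits Slc7a11 and Hmox1 most.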

Other observations

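Gpx2 and Txnrd1 encode selenoproteins, whose active site holds selenocysteine. This shared feature was noticed after the values were seen, so the list of 24 selenoprotein genes compiled from general knowledge is described by its counts without a test. Of the 22 that are not among the 10 genes, 18 had a mean TPM of at least 1, with 9 positive and 9 negative log2 fold changes and a median of -0.014. None was called by limma (lowest adjusted p = 0.263), and the groups did not overlap in 3 of the 18, a smaller share than the 21.0% of all tested genes, with Txnrd3 higher and Gpx4 and Selenos lower in the Mtg16-/- libraries. Selenos, a protein of the endoplasmic reticulum membrane, had a TPM of 86.7, 73.0 and 75.9 in WT and 67.7, 61.3 and 63.6 in Mtg16-/- (log2 fold change -0.28). Gpx1, the widely expressed relative of Gpx2, had a TPM of 527, 568 and 711 in WT and 647, 684 and 753 in Mtg16-/-, with overlapping groups and a log2 fold change of 0.21, while that of Gpx2 was -0.27. Sephs2, which makes the selenium donor, had a TPM between 199.8 and 235 in all 6 libraries. Selenop, the secreted selenium carrier, was highest in WT replicate 1, at 1374 TPM, and between 391 and 719 in the other 5 libraries.

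Eid3, which lies within the span of Txnrd1, had a TPM of 18.7, 22.6 and 19.7 in WT and 15.3, 15.5 and 8.72 in Mtg16-/-, and the groups did not overlap, as for Txnrd1 (log2 fold change -0.63, limma adjusted p = 0.291).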
